A study of Homo sapiens with 56 samples.

Results

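The 10 genes described here are transcribed from the mitochondrial chromosome: the rRNAs MT-RNR1 and MT-RNR2, and the mRNAs MT-ND1, MT-CO1, MT-CO2, MT-ATP6, MT-CO3, MT-ND4, MT-CYB and MT-ND6. They were taken by gene symbol from a table of 21596 genes, of which 15 lay on the mitochondrial chromosome. The genes were picked with their levels in these libraries already known, so their levels, shares and ratios below are descriptions and carry no test.

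The 56 libraries were made by poly-A selection from 4 cell line cultures of mantle cell lymphoma, which arises from B cells: 15 libraries of JEKO-1, 13 of Z138, 15 of MINO-P and 13 of MINO-VR. Treatments are named by their codes: CON (5 libraries, read as untreated), the single codes BTZ (6), CLF (6), IBR (11), S63845 (6) and YM155 (4), and the pairs BTZ_CLF (4), BTZ_S63845 (1), BTZ_YM155 (2), IBR_CLF (8), IBR_S63845 (1) and IBR_YM155 (2). YM155 suppresses expression of BIRC5 and S63845 inhibits the MCL-1 protein. What P, VR, CLF, IBR and BTZ stand for is not given in the sources used here. Line and treatment made 37 groups, 22 of 1 library, 11 of 2 and 4 of 3, and doses, times and separate cultures are not given in the sources used here, so the spread between libraries may be technical.

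Human mitochondrial DNA is transcribed from both strands as long precursors. Processing at the tRNAs that lie between the genes frees the rRNAs and mRNAs, and an mRNA encodes a subunit of complex I (ND), complex III (CYB), complex IV (CO) or ATP synthase (ATP). The strand called heavy is the template of both rRNAs and of all mRNAs except MT-ND6, which is made from the light strand. Most of these mRNAs receive a poly(A) tail, which in several completes the stop codon, whereas MT-ND6 mRNA lacks a tail and the rRNAs carry at most short ones. Poly-A selection therefore does not capture the 3 kinds of transcript alike, and a level here is the level in a poly-A-selected library.

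The 3′ ends show where a tail has to supply the stop codon. They are the last 30 bases of each mRNA in the GENCODE 29 transcripts of GRCh38, written 5′ to 3′ in the sense of the mRNA, with capitals for the last codon or, where the gene ends inside a codon, for the bases left over.
MT-ND1: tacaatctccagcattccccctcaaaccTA
MT-CO1: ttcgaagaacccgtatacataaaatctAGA
MT-CO2: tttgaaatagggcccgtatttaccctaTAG
MT-ATP6: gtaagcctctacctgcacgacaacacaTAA
MT-CO3: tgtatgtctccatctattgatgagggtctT
MT-ND4: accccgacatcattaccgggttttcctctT
MT-CYB: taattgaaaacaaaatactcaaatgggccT
MT-ND6: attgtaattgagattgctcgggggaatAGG
MT-ND1 ended 2 bases past its last whole codon, and MT-CO3, MT-ND4 and MT-CYB each ended 1 base past it. MT-CO2 and MT-ATP6 ended in TAG and TAA, while MT-CO1 and MT-ND6 ended in AGA and AGG. MT-ND6 also stood apart in composition, with 35.6% G and 7.05% C, against 9.94 to 16.2% G and 30.03 to 35.98% C in the 7 mRNAs from the heavy strand.

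On chromosome M of GRCh38, each gene is a single exon. MT-RNR1 (ENSG00000211459) spans bases 648 to 1601 and MT-RNR2 (ENSG00000210082) bases 1671 to 3229, both on the plus strand. The mRNAs of the plus strand are MT-ND1 (ENSG00000198888) at 3307 to 4262, MT-CO1 (ENSG00000198804) at 5904 to 7445, MT-CO2 (ENSG00000198712) at 7586 to 8269, MT-ATP6 (ENSG00000198899) at 8527 to 9207, MT-CO3 (ENSG00000198938) at 9207 to 9990, MT-ND4 (ENSG00000198886) at 10760 to 12137 and MT-CYB (ENSG00000198727) at 14747 to 15887. MT-ND6 (ENSG00000198695) spans 14149 to 14673 on the minus strand. The library kit does not keep the strand, so MT-ND6 reads cannot be told apart from reads of RNA that runs antisense to it. MT-ATP6 and MT-CO3 share base 9207.

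Libraries held 5.51 to 21.6 M recovered reads (median 16.02 M), and 3 reads were worth 0.139 to 0.545 CPM, a value that sums to the same total in every library, depending on its depth. MS4A1, CD79A, CD79B, PAX5, CCND1 and SOX11, markers of B cells or of this lymphoma, were at 10 CPM or more in all 56 libraries. The 3 T-cell markers CD3D, CD3E and CD3G had a median of 0 CPM, and CD68 and COL1A1, markers of macrophages and stroma, had medians of 12.3 and 4.58 CPM. Medians differed between lines. CD68 had a median of 70.3 CPM in MINO-VR and 0.353 in Z138, and COL1A1 one of 0.964 in MINO-VR and 44.0 in Z138. CD3G had one of 3.71 CPM in Z138 and 0 in the other lines. JEKO-1 BTZ replicate 3 stood apart, with 11915 genes detected, the fewest of the 56 libraries. In the MINO lines, the CON, BTZ, CLF and BTZ_CLF libraries (8 in all) have names that begin with HK and the other 48 libraries have names that begin with MCL. Every other treatment of the MINO lines was thus compared with CON across name series, and series and treatment cannot be told apart there. Among the JEKO-1, MINO-VR and MINO-P libraries, 8 pairs have names that differ by a final letter. Within these pairs the most divergent of the 10 genes differed by 0.0995 to 0.522 log2 units, against 0.774 to 4.38 in the 10 other pairs of the same group, and whether they come from separate cultures is not stated. In Z138, 5 pairs are named in the same way and were less alike, at 0.62 to 1.38 log2 units, which overlaps the other pairs.

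The rRNAs were the most variable of the 10 genes. MT-RNR1, the RNA of the small mitochondrial ribosome subunit, ranged over 734-fold between libraries, from 284 CPM in Z138 CON replicate 2 to 208327 CPM in JEKO-1 BTZ_CLF replicate 1. MT-RNR2, the RNA of the large subunit, ranged over 270-fold, from 1699 CPM in the JEKO-1 CON library to 458797 CPM in the same BTZ_CLF library. Among the mRNAs the range was 14.5-fold for MT-CO1 and 25.1- to 49.8-fold for the others.

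In CON libraries the rRNAs were low. MT-RNR1 was at 792 CPM in MINO-P, 688 in MINO-VR, 323 in JEKO-1, and 436 and 284 in the 2 Z138 libraries. MT-RNR2 was at 4166 CPM in MINO-P, 6961 in MINO-VR, 1699 in JEKO-1, and 5205 and 4172 in Z138. In BTZ libraries of JEKO-1, MT-RNR1 was at 184606, 188694 and 17786 CPM and MT-RNR2 at 384866, 385186 and 72429 CPM. All 3 lay above the JEKO-1 CON library, and replicate 3 lay far below the other 2, which are a pair by name.

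The 10 genes together held 1.4996% of the reads in the JEKO-1 CON library, 1.87% in MINO-P, 3.04% in MINO-VR, and 3.49% and 3.02% in Z138. In JEKO-1 their share was 64.5%, 64.6% and 9.74% with BTZ, and 76.6% and 62.4% with BTZ_CLF. With IBR it was 19.2%, 18.3% and 11.9%, with IBR_CLF 54.1% and 53.0%, and in the S63845 library 16.3%. Outside JEKO-1 the highest shares were 27.3% in the MINO-P IBR_S63845 library and 23.9% in the MINO-P IBR_YM155 library, and no Z138 library was above 7.85%. The 95% Wilson intervals of these shares were at most 0.083 percentage points wide and cover counting error only.

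**Figure D1:**
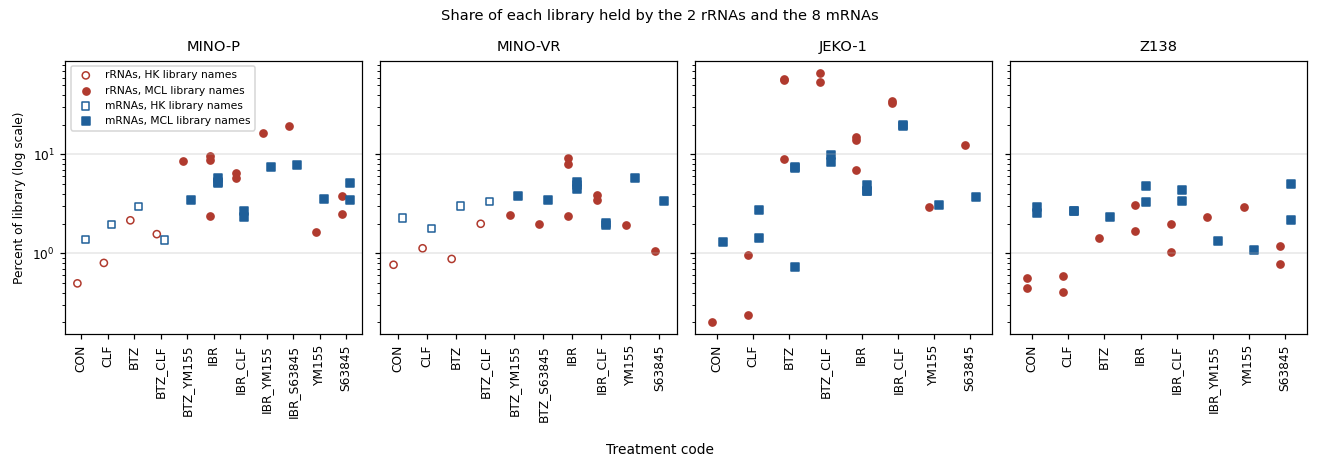
Percent of each library's reads held by the 2 rRNAs (circles) and the 8 mRNAs (squares), on a log scale, by treatment code in each of the 4 lines; each point is 1 library, and open symbols are libraries with HK names. In JEKO-1 the rRNAs lie at 0.202% in the CON library and at 66.7% in a BTZ_CLF library, while the mRNAs reach at most 19.9%, in an IBR_CLF library.

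Of the CPM of the 10 genes, the rRNAs made up 26.5% in the MINO-P CON library, 25.1% in MINO-VR, 13.5% in JEKO-1, and 16.2% and 14.8% in Z138. In JEKO-1 this rRNA part was 88.3%, 88.8% and 92.6% with BTZ, 87.1% and 86.7% with BTZ_CLF, 77.2% with S63845 and 49.2% with YM155. JEKO-1 CLF libraries, at 14.3% and 26.0%, were the closest to CON.

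The total share and the rRNA part did not move together in every library. JEKO-1 BTZ replicate 3 had the highest rRNA part of all 56 libraries (92.6%) at a share of only 9.74%. The Z138 YM155 library had an rRNA part of 73.1% and the Z138 IBR_YM155 library one of 63.3%, at shares of 4.06% and 3.64%, close to the 3.02% and 3.49% of the Z138 CON libraries. In JEKO-1 IBR_CLF libraries the share was 54.1% and 53.0% against 19.2% and 18.3% in IBR replicates 1 and 2. The rRNA part was lower than in those IBR libraries, at 64.4% and 62.5% against 78.1% and 76.6%. IBR replicate 3 had a share of 11.9% and an rRNA part of 58.5%, below both IBR_CLF libraries, so the rRNA parts overlapped.

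IBR libraries had a higher rRNA part than the CON libraries of the same line in all 4 lines, without overlap. It was 62.9%, 62.5% and 31.4% in MINO-P, 63.4%, 62.1% and 34.4% in MINO-VR, 78.1%, 76.6% and 58.5% in JEKO-1, and 39.6% and 33.6% in Z138. Outside Z138, replicates 1 and 2 are a pair by name and lay 18.1 to 31.5 points above replicate 3, so the size of the difference from CON depended on the library. With IBR_CLF the part was 71.0% and 71.4% in MINO-P, 65.9% and 64.3% in MINO-VR, and 19.4% and 36.8% in Z138.

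BTZ libraries did not behave alike across lines. The rRNA part was 42.2% in MINO-P against 26.5% in CON, 38.1% in Z138 against 16.2% and 14.8%, and 22.6% in MINO-VR against 25.1%. With S63845 it was 52.2% and 32.5% in MINO-P, 23.5% in MINO-VR and 35.2% and 13.4% in Z138, so the 2 Z138 libraries lay on either side of their CON libraries. The mean difference between BTZ and CON over the 4 lines was 28.0 percentage points, and 11.9 without the JEKO-1 libraries.

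**Figure D2:**
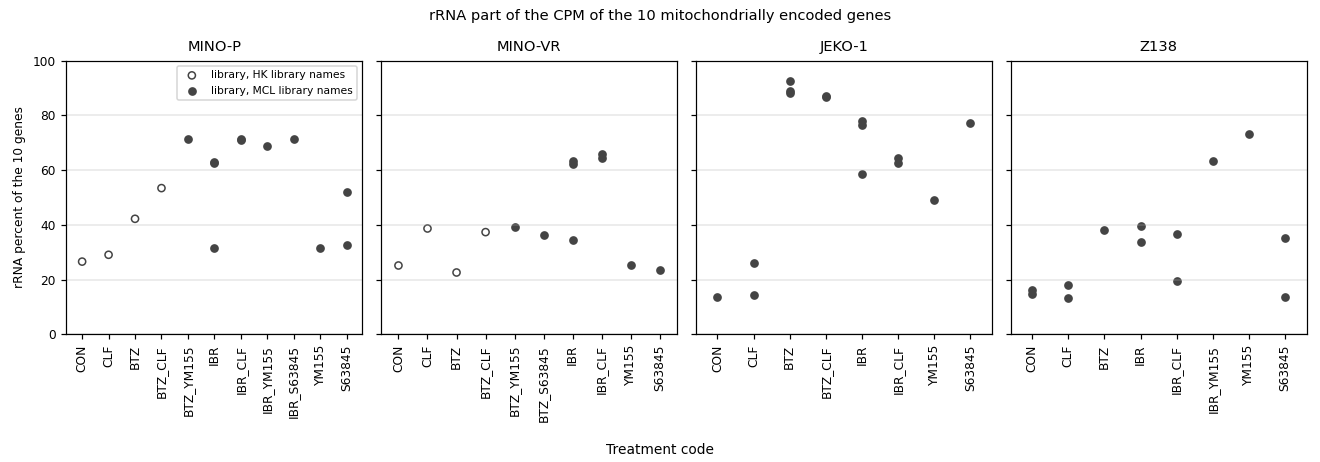
Percent of the CPM of the 10 genes that came from MT-RNR1 and MT-RNR2 (y axis), by treatment code in each of the 4 lines; each point is 1 library, and open symbols are libraries with HK names. CON libraries lie between 13.5% and 26.5%, and the 3 JEKO-1 BTZ libraries between 88.3% and 92.6%.

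The balance of the 2 rRNAs also varied. Per kilobase of gene, MT-RNR2 stood 3.22-fold above MT-RNR1 in the MINO-P CON library, 6.19-fold in MINO-VR, 3.21-fold in JEKO-1, and 7.30- and 8.99-fold in Z138. The ratio was 1.28, 1.25 and 2.49 in JEKO-1 BTZ libraries and 1.35 in both BTZ_CLF libraries, but 8.13 and 7.78 in IBR_CLF. The highest ratio, 10.9, was in the MINO-VR CLF library, against 6.19 in MINO-VR CON. JEKO-1 libraries with BTZ_CLF and IBR_CLF both had abundant rRNA, in opposite balance relative to the CON ratio of the line.

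RNAs of nuclear genes that carry no poly(A) tail moved with the rRNAs in some of these libraries and not in others. They were followed as the summed level of 7 entries for 7SK, 7SL, RMRP, RPPH1 and SNORD3A, a set chosen after the values were seen, in CPM rescaled to the reads of genes off the mitochondrial chromosome (nuclear CPM). In JEKO-1 the sum was 152 with CON and 47548, 47166 and 4629 with BTZ, 56243 and 37966 with BTZ_CLF, 28423, 20018 and 3086 with IBR, 55639 and 38241 with IBR_CLF, and 26718 with S63845. In MINO-P it was 966 with CON and 8351, 6128 and 574 with IBR, where the third library was again the low one. The sum was only 1094 with IBR_S63845 and 700 with BTZ_YM155 in MINO-P, at rRNA parts of 71.3% and 71.5%. In Z138 it was 0.80 and 29.98 with CON and only 76.2 with YM155, where the rRNA part was 73.1%. JEKO-1 libraries of BTZ replicates 1 and 2, BTZ_CLF, IBR replicates 1 and 2 and IBR_CLF were also among the shallowest, at 5.51 to 7.73 M reads. The part of these RNAs and of depth in the rRNA values was not tested.

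To follow the mitochondrial genes against the rest of the transcriptome, levels were expressed as nuclear CPM, since CPM values share a fixed total. On this scale the mean log2 fold change from CON of the same line was above 0 for the rRNAs in 32 of 33 treated groups, for the 7 mRNAs from the heavy strand in 29, and for MT-ND6 in 25. The rRNAs exceeded the heavy-strand mRNAs in 27 of the 33, with a difference of -0.293 to 6.003 log2 units and a median of 1.57. These counts share the CON libraries of each line, of which every line except Z138 has 1, and are no independent repeats.

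JEKO-1 BTZ had the widest gap between rRNAs and heavy-strand mRNAs, with a mean log2 fold of 8.63 for the rRNAs, 2.63 for the heavy-strand mRNAs and 0.66 for MT-ND6. These means joined unlike libraries: 10.09, 4.30 and 2.42 without replicate 3 and 5.72, -0.71 and -2.85 in replicate 3 alone. In JEKO-1 BTZ_CLF the 3 values were 10.47, 4.92 and 2.67, and in IBR_CLF 8.17, 5.33 and 2.75. JEKO-1 IBR gave 6.10, 2.12 and 1.56 (means of 3 libraries), and the single S63845 library 6.52, 1.88 and 1.42. In the 2 Z138 groups treated with YM155 the classes parted in direction: 2.52, -1.23 and -2.68 with YM155 and 2.02, -1.04 and -2.78 with IBR_YM155. MINO-VR BTZ showed the reverse order, with 0.33, 0.49 and 0.95. So did MINO-VR YM155, with 1.28, 1.58 and 2.37, and MINO-VR S63845, with 0.54, 0.72 and 1.395, each with 1 library. CLF alone left all 3 classes near CON in Z138, at -0.03, 0.05 and -0.31. In JEKO-1, CLF replicate 1 was at 0.235, 0.14 and -0.07 and CLF replicate 2 at 2.37, 1.12 and 0.51. CLF gave 0.33, 0.56 and 0.46 in MINO-P and 0.20, -0.33 and -0.65 in MINO-VR.

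**Figure D3:**
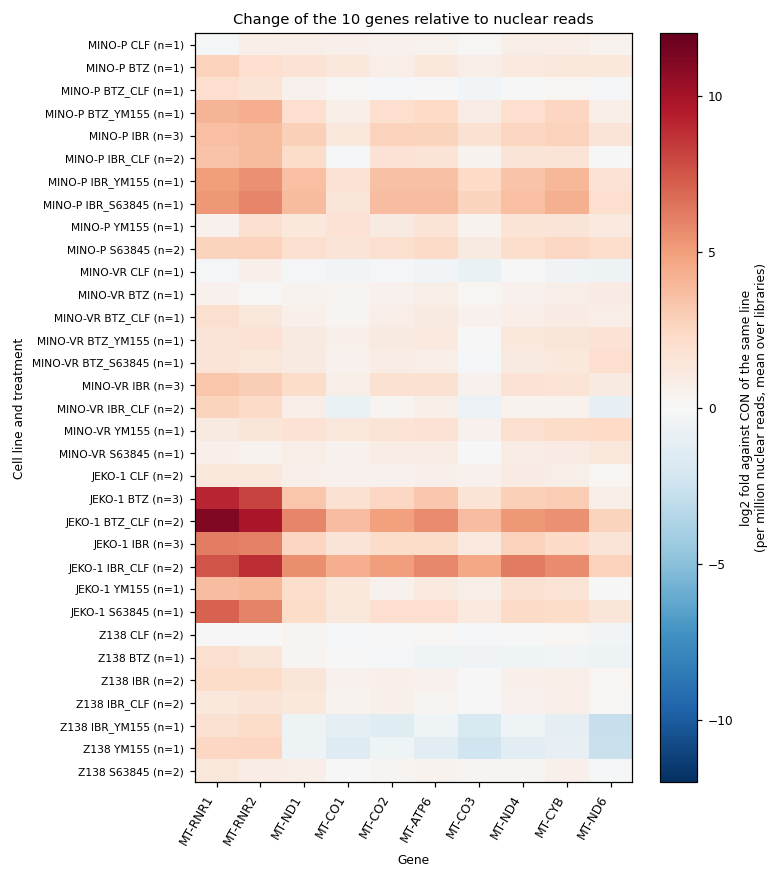
Colour gives the log2 fold change of each of the 10 genes (x axis) from CON of the same line, in nuclear CPM, for the 33 treated groups (y axis, with the number of libraries); red is above CON and blue below. The 2 rRNA columns are the darkest in the JEKO-1 row with BTZ_CLF, and the 2 Z138 rows with YM155 are red for the rRNAs and blue for the mRNAs.

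MT-CO1, MT-CO2 and MT-CO3 encode the catalytic core of complex IV. Per kilobase, MT-CO1 was the highest of the heavy-strand mRNAs in 30 libraries, MT-CO2 in 17, MT-CO3 in 4, MT-ATP6 in 3 and MT-ND4 in 2. In CON libraries MT-CO1 was at 5008 CPM in MINO-P, 8913 in MINO-VR, 4664 in JEKO-1, and 10338 and 10210 in Z138. It varied least, and in 11 of the 33 treated groups it had the smallest log2 fold of the heavy-strand mRNAs, with MT-CO3 in that place in 20. MT-CO3 was at 1718 CPM in the JEKO-1 CON library, at 4816, 4655 and 728 in BTZ, and at 17036 and 18253 in IBR_CLF.

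MT-ND1 and MT-ND4 encode membrane subunits of complex I. MT-ND1 had the largest log2 fold of the heavy-strand mRNAs in 15 of the 33 treated groups. MT-ND4 went from 1929 CPM in the JEKO-1 CON library to 59252 and 61631 CPM in IBR_CLF, the highest values of any mRNA in the 56 libraries. It was at 10467, 10891 and 10896 CPM in the 3 JEKO-1 IBR libraries, which lay close together although their rRNA parts did not.

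The order of MT-CO1 and MT-ND4 turned over in some libraries. The log2 level of MT-CO1 minus that of MT-ND4, both per kilobase, was 1.11 in the JEKO-1 CON library. It was -0.77 and -0.79 in JEKO-1 IBR_CLF and -0.42, -0.42 and 0.99 in BTZ. In JEKO-1 IBR it was -0.16, -0.19 and 0.19, so all 3 libraries lay below CON. In MINO-P it was 1.24 in CON and -0.56, -0.55 and 1.07 in IBR. JEKO-1 BTZ replicate 3 and MINO-P IBR replicate 3 lay nearer to CON than the other 2 libraries of their groups did.

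MT-CYB encodes cytochrome b, the mitochondrial subunit of complex III, and MT-ATP6 the proton channel subunit of ATP synthase. Per kilobase MT-CYB was the lowest of the heavy-strand mRNAs in 51 of 56 libraries. It was at 547 CPM in MINO-P CON, 874 in MINO-VR, 783 in JEKO-1, and 1418 and 1158 in Z138, and its highest level was 16351 CPM in JEKO-1 IBR_CLF. MT-ATP6 was at 908 CPM in JEKO-1 CON and at 11068, 10911 and 561 CPM in BTZ, so BTZ replicate 3 lay below CON and the other 2 above it.

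MT-ND6, a complex I subunit, was followed as its log2 level minus the mean log2 level of the 7 heavy-strand mRNAs, all per kilobase. This difference was -1.83 in the MINO-P CON library, -2.23 in MINO-VR, -1.40 in JEKO-1, and -2.16 and -2.39 in Z138. Over all libraries MT-ND6 stood at 6.05% to 48.4% of the heavy-strand mean. Between 590 and 24905 recovered reads lay behind its values. The 590 is from JEKO-1 BTZ replicate 3, where 76.6% of the low values came out as whole reads, the lowest share of the 56 libraries, so its recovered depth is the least certain.

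The lowest differences were in JEKO-1 with IBR_CLF and in Z138 with IBR_YM155. The difference was -3.90 and -4.05 in JEKO-1 IBR_CLF, where MT-ND6 itself was at 877 and 820 CPM against 308 in CON. In JEKO-1 BTZ it was -3.21, -3.37 and -3.54, and MT-ND6 was at 589, 506 and 39.2 CPM. In Z138 it was -3.71 with YM155 and -3.99 with IBR_YM155, where MT-ND6 was at 53.3 and 50.2 CPM against 399 and 290 in CON. The smallest gap, -1.05, was in the MINO-VR BTZ_S63845 library.

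CLF libraries had a lower MT-ND6 difference than CON libraries of the same line in all 4 lines, without overlap, by 0.105 to 0.410 log2 units, and each of these comparisons lay within 1 name series. Their values were -1.93 in MINO-P, -2.54 in MINO-VR, -1.61 and -2.01 in JEKO-1, and -2.77 and -2.48 in Z138. In each MINO line this was 1 library against 1, and JEKO-1 had 1 CON library. Libraries of the same group differed by as much, with -1.61 and -2.01 in JEKO-1 CLF and -2.16 and -2.39 in Z138 CON. IBR libraries differed within lines. In MINO-VR they were at -2.99, -3.40 and -1.50 around -2.23 in CON, and in JEKO-1 at -2.20, -2.32 and -1.34 around -1.40. In both lines the third library lay above CON and the pair by name below it. In MINO-P all 3 lay below the -1.83 of CON, at -2.82, -3.07 and -2.17, and in Z138 the pair by name was at -3.15 and -2.22, with the second library between the 2 CON values.

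**Figure D4:**
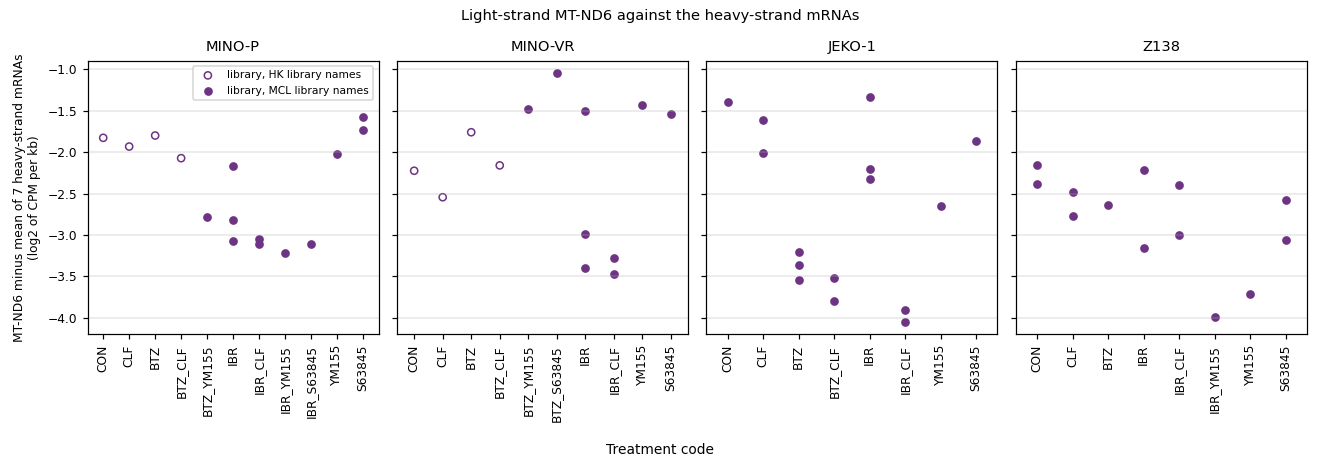
Log2 level of MT-ND6 minus the mean log2 level of the 7 heavy-strand mRNAs, all in CPM per kilobase (y axis), by treatment code in each of the 4 lines; each point is 1 library, and open symbols are libraries with HK names. JEKO-1 lies at -1.40 in the CON library and at -3.90 and -4.05 with IBR_CLF. CLF libraries lie below the CON libraries in each line, with 1 library on each side in both MINO lines.

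The other 5 genes on the mitochondrial chromosome, MT-ND2, MT-ND3, MT-ND4L, MT-ND5 and MT-ATP8, spanned 30.3- to 158-fold between libraries, with MT-ND3 the widest at 50.1 to 7924 CPM. After averaging within groups and centring within lines, the mean log2 level of the 10 genes was most like that of MTATP6P1 (r = 0.883 over 37 groups, 13270 genes compared), MTND2P28 (0.878), MTND4P12 (0.831), MTND1P23 (0.773) and MTCO2P12 (0.746). All 5 are nuclear copies of mitochondrial sequence, to which reads of near-identical mitochondrial RNA could have been assigned. MTATP6P1 stood at 1.15% to 9.48% of the summed CPM of MT-ATP6 and MT-CO3, so a part of those genes' reads may be counted there. Of the 10 genes, MT-ATP6, MT-ND1 and MT-CYB followed the mean of the other 9 most closely (r = 0.969, 0.968 and 0.965) and MT-ND6 least (0.54). These correlations describe groups that share lines and libraries.

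Nuclear genes that serve mitochondrial RNA were compared between treatments with limma over all 56 libraries, with treatment, line and name series as terms, on nuclear CPM and with Benjamini-Hochberg adjustment over 17218 genes. The fit assumed the same treatment effect in all 4 lines, and its p-values rest on that. In the MINO lines it separated series from treatment only through this assumption. The fit also counted the libraries of 13 pairs by name as separate, although it is not stated that they come from separate cultures. Its p-values rest on that too. A list of 49 genes covered transcription, processing, modification, stability and decay of mitochondrial RNA. A list of 33 held nuclear subunits of the complexes that the mRNAs belong to. Of all genes tested, 4.87% were called higher and 13.7% lower in BTZ against CON (18.6% in all, with a median of all genes of -0.17 log2 units). In IBR against CON, 4.37% were called higher and 6.39% lower (10.8% in all). Among the 10 mitochondrial genes this fit called MT-RNR1 and MT-RNR2 higher in both comparisons and no other, a count from which nothing is read because the genes were chosen on these values. The balance of all BTZ calls moved with the scaling: 26.2% of the calls were higher here, 39.3% with a trimmed-mean scaling on nuclear genes and 7.26% with the values as deposited, where the median of all genes was -0.42.

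In BTZ against CON, 10 of the 49 RNA machinery genes fell and 1 rose, with a list median of -0.35. Of all genes, 18.6% were called in this comparison, 4.87% higher and 13.7% lower. The list total is near that share and so is no result about the list. Of the 13 genes for rRNA modification and ribosome assembly, 6 fell. MRM1, which methylates the large rRNA, fell by 1.96 log2 units (SE 0.46, adjusted p = 0.00158, limma), from 25.0 ± 11.4 nuclear CPM (SD, n = 5) in CON to 9.56 ± 7.38 (n = 6). MRPL12, a ribosomal protein that also binds the mitochondrial RNA polymerase, fell by 1.71 (SE 0.35, adjusted p = 0.000342, limma). ENDOG, a mitochondrial endonuclease, fell by 1.96 (adjusted p = 0.00477, limma) and MTG1, a ribosome assembly GTPase, by 1.47 (adjusted p = 0.0199, limma). FASTKD5, which acts in processing of mRNAs that lack flanking tRNAs, rose by 0.77 (SE 0.27, adjusted p = 0.0408, limma). It was at 115 in MINO-P BTZ against 48.6 in CON, at 105 against 44.6 in MINO-VR, and at 100.3 against 35.9 and 36.8 in Z138. In JEKO-1 the 3 BTZ libraries spanned 12.2 to 83.5, on both sides of the 48.5 of CON. The FASTKD5 call was lost in 12 of 20 alternatives, with adjusted p of up to 0.521 (limma).

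JEKO-1 BTZ replicate 3 set part of these sizes: MRM1, ENDOG, MTG1 and CYC1 were listed at 0 there. Without that library, MRM1 fell by 1.36 and FASTKD5 rose by 1.19, MTG1 was no longer called (adjusted p = 0.0574, limma), and 11 genes of the list were still called, 2 higher and 9 lower. The count of 11 was 7 without the CON library of either MINO-P or JEKO-1, and 4 without all JEKO-1 libraries.

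In IBR against CON, 10 of the 49 fell and 0 rose, with a list median of -0.43. Of all genes, 10.8% were called in this comparison, 4.37% higher and 6.39% lower. Of the 12 transcription genes, 5 fell. PNPT1, a subunit of the degradosome and of RNA import, fell by 1.40 log2 units (SE 0.33, adjusted p = 0.00414, limma), from 91.4 ± 51.9 nuclear CPM (SD, n = 5) to 24.0 ± 13.9 (n = 11). In MINO-P it was at 8.80 to 23.3 in the 3 IBR libraries against 92.5 in CON, and in Z138 at 24.3 and 38.3 against 34.9 and 66.4, where the groups overlapped. TFAM, which packages mitochondrial DNA and starts its transcription, fell by 0.95 (SE 0.23, adjusted p = 0.00548, limma) and is named outside the rule, after its value was seen. MRM1 fell by 1.41, MRPL12 by 1.18 and TWNK, the replicative helicase, by 1.14, with adjusted p of 0.0333, 0.0187 and 0.0245 (limma). The calls of MRM1, MRPL12 and TWNK were lost in 6, 4 and 5 of 25 alternatives, and those of PNPT1 and TFAM in 2 and 3.

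The IBR count depended on single libraries and on the scaling. It was 1 with the libraries paired by name averaged and 4 with the values as deposited. It was 2 without Z138 CON replicate 2, 4 without the JEKO-1 CON library, 6 without Z138 CON replicate 1, MINO-P CON or Z138 IBR replicate 1, and 0 in the Z138 and JEKO-1 libraries alone, where no comparison crosses name series. Over all genes, limma called 1147 in IBR against CON with the values as deposited, against 1853 on nuclear CPM. The rRNAs and these nuclear genes were not tested against each other.

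Of the 33 nuclear subunits, 11 fell and 0 rose in BTZ against CON, with a list median of -0.61. The heme-bearing CYC1 and the core protein UQCRC1 of complex III fell by 1.86 (SE 0.55, adjusted p = 0.0127, limma) and 1.73 (SE 0.46, adjusted p = 0.00613, limma). NDUFV1 of complex I fell by 1.35 (adjusted p = 0.00194, limma) and ATP5F1D of ATP synthase by 1.60 (adjusted p = 0.0393, limma). The ATP5F1D call was lost in 11 of 20 alternatives, with adjusted p of up to 0.47 (limma). By complex, 3 of 7 fell in complex I, 3 of 9 in complex III, 2 of 10 in complex IV and 3 of 7 in ATP synthase. The complex IV count is near the share of all genes and so is no result about that complex. Without JEKO-1 BTZ replicate 3, CYC1 fell by 0.92 and UQCRC1 by 0.95, ATP5F1D was not called (adjusted p = 0.0867, limma), and 9 of the 33 were called. The count was 7 without the JEKO-1 CON library and 3 without all JEKO-1 libraries.

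In IBR against CON, 2 of the 33 subunits fell, a share near the 6.39% of all genes called lower and so no result about the list. They were ATP5PB, which fell by 0.59 (adjusted p = 0.0283, limma), and NDUFV2, which fell by 0.58 (adjusted p = 0.0209, limma). Their calls were lost in 8 and 6 of 25 alternatives. The count was 0 without the MINO-P CON library, and 1 without the JEKO-1 CON library, either Z138 CON library or Z138 IBR replicate 2. NDUFV2 also fell in YM155 against CON, by 0.86 (SE 0.20, adjusted p = 0.0245, limma), the only call among the 33, where 0.738% of all genes were called higher and 0.407% lower (1.14% in all). It was at 57.0 against 114.6 in MINO-P, 42.4 against 84.4 in MINO-VR, 50.2 against 81.2 in JEKO-1, and 17.3 against 49.3 and 58.4 in Z138. This call was lost without the CON library of MINO-P or JEKO-1, Z138 CON replicate 2 or the Z138 YM155 library. No machinery gene was called with YM155 (2507 of all genes had an unadjusted p under 0.05 in limma), while 1 was called without the MINO-P YM155 library.

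No gene of either list was called in CLF or S63845 against CON or in IBR_CLF against IBR, where limma called 0% of all genes. At an unadjusted p under 0.05, limma gave 62, 428 and 1679 of all genes in these comparisons. BTZ_CLF against BTZ also had no call in either list, with 0.0639% of all genes called higher and 0.00581% lower (0.0697% in all).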

How the data were processed

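Per the labels' protocols, RNA was extracted with QIAshredder and RNeasy Mini kits and poly-A libraries were made with the unstranded TruSeq RNA Library Prep Kit v2. Per the submitters' processing notes, Partek and hg38 were used; aligner, counting and filters are not given in the sources used here. The authors deposited log2 of CPM plus 1: with the log2 undone, each library summed to 999984 to 1000009. An entry without a gene name (at most 0.000773% of a library) was left out. Depth came from the step between low CPM values; 76.6% to 89.1% of values up to 20 reads were whole within 0.05 reads, so no count model was used.

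CPM was rescaled to reads of genes off the mitochondrial chromosome. Genes at 1 or more in at least 2 libraries were fitted with limma 3.58.1 (R 4.3.3), with trend, on log2(value + 1), which understates changes of low genes. Calls needed a Benjamini-Hochberg adjusted p under 0.05. The code was tested on simulated data. Levels per kilobase divide CPM by gene length. Replicates are numbered in accession order.

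Named genes were the 10 mitochondrial genes, up to 4 rises and 4 falls per nuclear list and comparison, and the 5 genes most like the 10. Members and lists were chosen with earlier results of these data known. Alternatives covered scaling, pseudocount, filter, series term, name suffix, lines and left-out libraries.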

Additional observations from a re-analysis of the deposited data

Results flagged for a closer look

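In these comparisons the libraries of at least 1 line all moved one way and those of another all moved the other way. Most rest on 1 library a group, and the differences between lines were not tested.

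The share of the library held by the 10 genes differed from CON with CLF by 0.882 percentage points in MINO-P and 1.17 in JEKO-1, but by -0.138 in MINO-VR. Adding CLF to IBR went with 37.1 points in JEKO-1 and -5.68 in MINO-VR. Adding CLF to BTZ went with 1.45 points in MINO-VR and -2.18 in MINO-P.

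The rRNA part of the 10 genes differed between BTZ and CON by 15.6 points in MINO-P, 76.4 in JEKO-1 and 22.7 in Z138, but by -2.56 in MINO-VR. Between S63845 and CON it differed by 15.8 points in MINO-P and 63.7 in JEKO-1, against -1.62 in MINO-VR. Between BTZ_CLF and BTZ it differed by 11.2 points in MINO-P and 14.8 in MINO-VR, against -2.99 in JEKO-1.

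MT-ND6 relative to the heavy-strand mRNAs differed between BTZ and CON by 0.0276 log2 units in MINO-P and 0.46 in MINO-VR, but by -1.97 in JEKO-1 and -0.37 in Z138. With YM155 the difference was 0.79 in MINO-VR against -0.19 in MINO-P, -1.25 in JEKO-1 and -1.44 in Z138. With S63845 it was 0.17 in MINO-P and 0.68 in MINO-VR against -0.47 in JEKO-1 and -0.55 in Z138. YM155 and S63845 libraries of the MINO lines were compared with CON across name series.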

How the results depend on the processing

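The mean over lines moved most without JEKO-1: for BTZ the share of the 10 genes went from 12.3 to 1.52 points, the rRNA part from 28.0 to 11.9 and the MT-ND6 difference from -0.46 to 0.0408, and for S63845 the rRNA part went from 21.7 to 7.67. Also without JEKO-1, the share changed sign for IBR_CLF against IBR (6.66 to -3.48) and BTZ_CLF against BTZ (7.48 to -0.369), as did the MT-ND6 difference for S63845 (-0.0409 to 0.101), and the share for S63845 went from 5.77 to 2.77. Without Z138, the rRNA part with YM155 went from 24.7 to 13.7. Called genes of the machinery list, 11 with BTZ, 10 with IBR and 0 with YM155, became 4 with IBR on the deposited scale, 1 with YM155 under trimmed-mean scaling, 21 with IBR without the series term, 7 with BTZ and 1 with IBR with suffix pairs averaged, 5 and 0 in Z138 and JEKO-1 alone (added after seeing the data), and 4 with BTZ and 2 with YM155 without JEKO-1 (also added). Called genes of the partner list, 11 with BTZ, 2 with IBR and 1 with YM155, became 19, 0 and 0 on the deposited scale, 7 with BTZ and 1 with IBR under trimmed-mean scaling, 5 with IBR without the series term, 1 with IBR and 0 with YM155 averaged, 1, 0 and 0 in Z138 and JEKO-1 alone, and 3 with BTZ and 1 with IBR without JEKO-1. Over all genes, limma called 3203 with BTZ, 1853 with IBR and 197 with YM155. These became 3966, 1147 and 45 on the deposited scale and 3219, 1939 and 188 under trimmed-mean scaling. Totals over all genes under the other settings are not given here, so those changes in the counts are no result about the lists. Pseudocount, filter and the suffix as a replicate block moved no list count by over 1.5 times.

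Leaving out 1 library at a time, the share moved over 1.52 to 16.9 points for BTZ, 2.77 to 7.23 for S63845 and 1.38 to 12.3 for BTZ_CLF against BTZ (lowest without JEKO-1 BTZ replicate 3), and the rRNA part over 11.9 to 38.2 for BTZ, 13.7 to 32.8 for YM155 and 7.67 to 29.5 for S63845. The MT-ND6 difference moved over -0.77 to 0.0408 for BTZ, -0.96 to -0.22 for YM155 and -0.28 to 0.10 for S63845. For BTZ it was 0.0408, and the BTZ share and rRNA part at their lowest, without the JEKO-1 CON library, where JEKO-1 drops out. The machinery count moved over 7 to 11 for BTZ, 2 to 11 for IBR and 0 to 1 for YM155, and the partner count over 7 to 16, 0 to 3 and 0 to 1. The labels give no replicate numbers that pair libraries across groups, so the suffix was the only block that could be fitted. The per-kilobase setting was not run for the share. A depth of 5.51 M reads in the shallowest library and 1 CON library in 3 of 4 lines limit what can be seen.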
